A study of Homo sapiens with 2 samples.

Results

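The entries described here are the longest ones of a piRNA database that received reads in a small RNA library of U87MG, an established human glioblastoma cell line. They were chosen by 2 listed values, a length of 32 bases or more and 10 or more reads, and 1 abundant entry that met both, piR-61648 with 258783 reads, was left out. The rule found 85 entries of 10487 in all, and every one of the 85 was exactly 32 bases long. The untreated cells were kept in MEM to which 10% FBS and 1% antibiotics had been added, and the small RNA had an integrity number of 8.7. The series also holds 1 mRNA library of the same line, which was not used here. There was 1 small RNA library, with no control cell and no replicate, so the values below describe this library and no difference was tested against a spread between replicates.

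piRNAs are small RNAs that guide PIWI proteins of the Argonaute superfamily to transposon transcripts, mainly in the germline. Primary piRNAs usually begin with U, which the database writes as T. In the amplification cycle known as ping-pong, a piRNA that begins with U pairs over its first bases with a partner that carries A at base 10. Databases of piRNA sequences also hold fragments of tRNA, rRNA and other abundant RNAs, which occur in somatic cells without PIWI proteins. For that reason the first base, base 10 and the overlap with abundant entries were recorded for each of the 85 entries. The names of parent RNAs given below come from general knowledge of their sequences, and no reference sequence of tRNA or rRNA was matched here.

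The entries with the most reads stood in small sets of overlapping sequences, and these sets are shown because the overlap decides how the read counts can be read. All sequences run 5′ to 3′. The first set has the letters of tRNA-Lys-CTT and its relatives. Capitals mark, in piR-35413 and piR-31104, the base that the 31-base entry piR-35412 lacks, in piR-35414 and piR-35469 the bases that differ from piR-35413, and in piR-39018 the run shared with piR-35413.
piR-35412: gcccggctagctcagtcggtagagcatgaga
piR-35413: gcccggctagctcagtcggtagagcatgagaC
piR-35414: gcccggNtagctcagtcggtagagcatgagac
piR-31104: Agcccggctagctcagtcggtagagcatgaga
piR-35469: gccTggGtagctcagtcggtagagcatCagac
piR-39018: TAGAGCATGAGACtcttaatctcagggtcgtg

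The next sets have the letters of tRNA-Gly-TCC and tRNA-Val, and show a long entry below its shorter relative. Capitals mark the bases that lie outside the run shared with piR-31142 (for piR-31143), with piR-60576 (for piR-60577, piR-43994 and piR-43996) and with piR-36742 (for piR-36743).
piR-31142: agcgttggtggtatagtggtgagcatagc
piR-31143: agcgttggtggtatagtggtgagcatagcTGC
piR-60576: ttccgtagtgtagtggttatcacgttcgcc
piR-60577: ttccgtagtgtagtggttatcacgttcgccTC
piR-43994: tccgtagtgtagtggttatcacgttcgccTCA
piR-43996: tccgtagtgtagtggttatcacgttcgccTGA
piR-36742: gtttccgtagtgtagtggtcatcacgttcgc
piR-36743: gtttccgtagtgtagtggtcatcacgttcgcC

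A further pair of sets with an abundant relative are fragments with the letters of the rRNA of the small cytosolic subunit (piR-33082) and of a mitochondrial tRNA for histidine (piR-47305). Capitals mark the run that each entry shares with the long one, or, in piR-33160, with piR-41209.
piR-41209: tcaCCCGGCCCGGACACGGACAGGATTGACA
piR-33082: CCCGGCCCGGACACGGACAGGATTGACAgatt
piR-33160: CCGGCCCGGACACGGACAGGATTGACAgat
piR-58469: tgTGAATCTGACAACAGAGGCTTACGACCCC
piR-47305: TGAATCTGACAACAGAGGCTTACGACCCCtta

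The reads of the 85 entries lay in a few of them. Together they had 448686 reads, or 1.64% of the 27299683 piRNA reads (exact Clopper-Pearson 95% interval 1.64 to 1.65%, which covers counting error only, since reads are not independent molecules). The 5 highest held 90.7% of these reads: piR-35413 with 158206, piR-31143 with 137531, piR-35414 with 63597, piR-33082 with 28169 and piR-36173 with 19589. No other entry of the set reached 10000 reads. The median was 142 reads, and 39 entries with 10 to 99 reads held 0.294% of the reads of the set. The 1249 shorter entries with 10 or more reads had a lower median, 31 reads, and a far higher maximum, 13089145 reads for an entry of 31 bases.

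A larger share of long entries passed the read minimum than at any other length from 26 to 31 bases. Of the 439 entries of 32 bases other than piR-61648, 85 or 19.4% had 10 or more reads, against 10.03% of the 26-base entries, the lowest share, 14.6% of the 28-base ones, the next highest, and 13.5% of the 31-base ones. At the limits of the rule, there were 5 entries at 10 reads and 5 long entries at 9 reads, such as piR-33117, piR-46471 and piR-51027. The 2 entries of 33 bases, PIR192865 and PIR193209, had 3 reads and 1 read and were not included. On the short side, 192 entries of 31 bases had 10 or more reads and held 81.4% of all piRNA reads, so the limit of 32 bases falls directly after the length with the most reads.

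Overlap with abundant entries covered most of the reads and few of the entries. An entry was taken as abundant at 10000 or more reads, and 58 entries of the file met this, 5 of them long ones. Of the 85 long entries, 12 or 14.1% shared at least 20 bases in a row, on the same strand, with another abundant entry, and these 12 held 89.03% of the reads of the set (interval 88.9 to 89.1%). Among the shorter entries with 10 or more reads the share was 3.52%, or 44 entries. These 44 held 79.9% of the reads of the shorter entries. A shorter entry offers fewer runs of 20 bases, and the shares of entries were not matched for length. With the minimum length set at 31 bases, 25 of 277 entries overlapped an abundant entry. The other 73 long entries had 49214 reads. Only unbroken runs counted, so the 73 include piR-33486, which differs from the abundant piR-36173 by 1 base over 31 aligned bases. With only the 10 highest entries of the file taken as abundant, 8 long entries overlapped one and held 51.6% of the reads. Reads that match several overlapping entries cannot be assigned to 1 of them with certainty without the authors' rule for such reads, which is not stated.

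In the tRNA-Lys-CTT set, entries that differ by 1 end base had very different read counts. piR-35412 of 31 bases had 438103 reads, and piR-35413, which adds a C at its 3′ end, had 158206, or 0.361 reads for each read of the shorter entry. piR-31104, which adds an A at the 5′ end of piR-35412 instead, had 62 reads, so the shorter entry had 7066 reads for each of its reads. piR-35469, with the letters of another lysine tRNA, differs from piR-35413 by C4T, C7G and G28C, where the base of piR-35413 comes first and positions count from its 5′ end. It had 3520 reads, more than its 3 shorter versions piR-35467, piR-35468 and piR-35466 with 2227, 459 and 308.

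An entry with an undetermined base was among the highest. piR-35414 is identical to piR-35413 except for C7N, an N listed at base 7, and had 63597 reads, 0.402 for each read of piR-35413. The file lists no read sequences, and the base that the reads carried at this position was not analysed here. Of the 85 long entries 3 held an N, and piR-35414 brought their share of reads to 14.2%. Among the shorter entries with 10 or more reads 11 held an N, with 1736 reads in all. The other pair of this kind was less even. piR-36244, which has the letters of an alanine tRNA and differs from piR-36243 by G8N, had 25 reads against 2030. The third entry with an N, piR-30328, had 94 reads.

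A longer entry did not follow its shorter relative by a fixed ratio. Of the 85 entries, 15 contained a shorter listed entry in full, and 12 of them began at the same base as it. The same count was not made for the shorter entries, so it is no trait of the long ones. In 10 of the 15 at least 1 contained entry had more reads, and the following are examples. piR-60577 had 2319 reads against 704713 for piR-60576, a ratio of 304, and piR-36743 had 956 against 62472 for piR-36742, a ratio of 65.3. The other direction appeared in piR-31143 of tRNA-Gly-TCC, which had 137531 reads against 12038 for the 29-base piR-31142, or 11.4 reads for each.

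Beyond these, 5 of the 15 had more reads than every entry they contained: piR-31143, piR-33082, piR-35469, piR-32311 and piR-44717. piR-33082, an rRNA fragment, had 28169 reads, between piR-41209 with 54583 and piR-33160 with 20224. Its start lies 3 bases after that of piR-41209 and 1 base before that of piR-33160. piR-47305 had 1204 reads and shared 29 bases with piR-58469, which starts 2 bases earlier and had 11204. In the valine set piR-43994 and piR-43996 differ by C31G and had 1454 and 936 reads, of the same order although their last bases differ.

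Single linkage of all entries with 10 or more reads, by 20 shared bases, placed the 85 long entries in 76 families. In 54 of the families the long entry stood alone, 1 held long entries only, and 21 held shorter entries too, in 5 of which a long entry had the most reads. Only unbroken runs joined entries. piR-33486, which differs from piR-36173 by 1 base, and piR-39018, shown in the lysine set, therefore counted as alone. Likewise piR-36743 fell outside the family of piR-60577, from which it differs by 1 base over 30 aligned bases. The lysine family had 720262 reads over 11 entries, of which 4 long ones held 31.3%. In the glycine family of piR-31143 the long entry held 91.7% of 150045 reads. The family of piR-33082 had 102976 reads, 27.4% of them in the long entry, and that of piR-47305 had 12408, with 9.70% in it. The alanine family of piR-36243 had 3001 reads, of which its 3 long entries held 72.4%. Sharing of 20 bases with any listed entry, abundant or not, was found for 36 of the 85, or 42.4%, which held 95.5% of the reads. Among the shorter entries with 10 or more reads it was found for 20.2%, which held 86.6% of theirs. Here too the shares of entries were not matched for length.

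The 3′ part of a tRNA appeared in piR-36173, the fifth entry by reads. It has most of the letters of the end of a glycine tRNA, with 19589 reads, and shared no 20 bases in a row with another abundant entry. The 31-base piR-33487, shifted by 1 base, shared 30 bases with it and had 876 reads. piR-33486 carries another base at the same place, T17G counted in piR-36173, and had 364 reads, so piR-36173 had 53.8 reads for each. The place lies in the T loop, where the B box, a promoter element inside tRNA genes, is read. The B box has A at this place, and neither piR-36173 nor piR-33486 does. Capitals mark the base that differs.
piR-36173: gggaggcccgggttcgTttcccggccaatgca
piR-33487: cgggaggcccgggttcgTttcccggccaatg
piR-33486: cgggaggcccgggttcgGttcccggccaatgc

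The B box was searched as GTTCNANNC on the listed strand only, and was found in 1 of the 85 entries, piR-44717 with 24 reads. It was in 30 or 2.40% of the shorter entries with 10 or more reads and in 0.591% of the whole file. With a T in place of the A, as GTTCNTNNC, the motif was in 2 long entries, piR-36173 and piR-32311 with 142 reads, in 13 of the shorter entries, or 1.04%, and in 0.667% of the whole file. This second form was searched after the sequences had been seen. None of the 85 entries ended in CCA, the 3′ end of mature tRNA, against 33 of the shorter ones and 2.23% of the whole file. Capitals mark the motif in the pair below.
piR-44717: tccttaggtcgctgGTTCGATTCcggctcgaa
piR-32311: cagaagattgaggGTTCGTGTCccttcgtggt

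Fewer of the long entries began with T than of the shorter ones. T was the first base of 41 of the 85, or 48.2%, G of 19, C of 15 and A of 10. Among the shorter entries with 10 or more reads 70.4% began with T, and at single lengths the share lay between 63.8% at 28 bases and 75.9% at 26 bases, with 65.1% at 31 bases. The 356 entries of 32 bases or more under 10 reads were 74.2% T at the first base. Over all entries, whatever their reads, T began 69.0% of those of 32 bases other than piR-61648. At the lengths from 26 to 31 bases that share lay between 76.0% at 28 bases and 80.9% at 29 bases. By reads the difference was larger. Entries starting with T held 3.28% of the reads of the long entries (interval 3.22 to 3.33%) and 59.98% of those of the shorter ones.

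The first base varied with the read count, and the long entries stood lower than the shorter ones in each band of reads. From 10 to 99 reads 23 of 39 long entries (58.97%) and 77.3% of 856 shorter ones began with T. From 100 to under 1000 reads the values were 13 of 31 (41.9%) and 64.0% of 247. At 1000 reads or more they were 5 of 15 (33.3%) and 40.4% of 146, and here the interval of the long entries, 11.8 to 61.6%, is wide and includes the share of the shorter ones. The 6 long entries with the most reads, which begin with G, A or C, held 91.7% of the reads. Without these 6, T-starting entries were 51.9% of 79 entries and 39.4% of 37291 reads. Overlapping entries share their bases and are not independent, so these intervals are descriptions.

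The share with A at base 10 was close to that of the shorter entries. A stood there in 26 of 85 entries, or 30.6%, against 33.3% of the shorter entries with 10 or more reads and 31.2% of the long entries under 10 reads. G was the most frequent base at this position, in 29 entries, and these held 94.3% of the reads, while entries with A held 2.61% (2.57 to 2.66%). The shorter entries were alike in this, with G in 27.8% of entries and 87.9% of reads and A in 5.97% of reads. All 5 of the highest entries have G at base 10. Among the 39 entries with 10 to 99 reads 17 had A (43.6%), against 37.1% of 856 shorter ones. From 100 to under 1000 reads 6 of 31 did (19.4%), against 25.1% of 247. At 1000 reads or more 3 of 15 did (20%), against 24.7% of 146. In both sets the share was lower from 100 reads than below. At the other end of the sequence A was the last base of 28 entries, C of 26, T of 23 and G of 8, and entries ending in C held 82.8% of the reads. The median GC content was 53.1%, from 28.1 to 75%, against a median of 50% in the shorter entries with 10 or more reads.

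Among the 73 entries with no abundant relative, 36 or 49.3% began with T. Of those that did not, piR-31638 and piR-36376 are printed as examples, with bases 1 and 10 in capitals. piR-31638 has the letters of mitochondrial rRNA of the small subunit and had 4303 reads. piR-36376, of the large cytosolic rRNA, had 3643, and its 3 relatives had 964, 36 and 12.
piR-31638: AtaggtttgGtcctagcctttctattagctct
piR-36376: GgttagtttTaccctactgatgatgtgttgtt

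Both marks, T at base 1 and A at base 10, occurred together in 13 of the 85 entries, or 15.3%, against 22.7% of the shorter entries with 10 or more reads. They held 0.810% of the reads of the long entries. The highest was piR-39018 with 2444 reads, the middle part of tRNA-Lys-CTT shown above, whose first 13 bases are the last 13 of piR-35413. The other 12 had between 10 and 329 reads, and 9 of the 13 had under 100. Examples among them are piR-38502 with 260 reads, piR-55960 with 69 and piR-41874 with 60. piR-38502 is shown with both bases in capitals.
piR-38502: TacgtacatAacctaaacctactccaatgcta

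Pairs laid out as in ping-pong, in which the first 10 bases of an entry are the reverse complement of the first 10 of another, were found for 7 of the 85 entries, or 8.24%. The share among the shorter entries with 10 or more reads was 7.93%. The 7 had 1048 reads in all, and 4 of them, with 720 reads, had both T at base 1 and A at base 10. An example without both is piR-46432, with 203 reads, whose partner piR-34888 had 35. Overlaps of 8, 9, 11, 12 and 13 bases gave 15, 3, 1, 2 and 2 entries. In the shorter entries they gave 195, 84, 30, 19 and 9, against 99 at 10 bases. In both sets an overlap of 8 bases was found for more entries than 10 bases. The pairs come from listed sequences, and no read was placed on a genome.

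A pair of entries began with a complete let-7 miRNA, the family that represses growth genes in many tissues. piR-49143 holds the 22 bases of let-7f-5p followed by 10 more, and matched the RefSeq hairpin MIRLET7F1 over all its 32 bases, at chr9:94176353-94176384 on the plus strand of GRCh38.p14. piR-49145 holds let-7c-5p and 10 more, and matched MIRLET7C at chr21:16539838-16539869 on the plus strand. Both therefore run past the mature miRNA into the precursor. They had 59 and 26 reads, against 218267 for let-7f-5p and 9256 for let-7c-5p among the 11785001 miRNA reads of the same library, or 3699 and 356 miRNA reads for each. No other long entry shared 16 bases with a listed miRNA. The share among all shorter entries with 10 or more reads was not counted. Capitals mark the mature miRNA.
piR-49143: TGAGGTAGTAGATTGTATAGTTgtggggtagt
piR-49145: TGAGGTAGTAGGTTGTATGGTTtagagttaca

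The letters TGATG, the core of the C box of box C/D small nucleolar RNAs, which guide methylation of rRNA, began within the first 10 bases of 9 long entries, or 10.6%. The same held for 6.41% of the shorter entries with 10 or more reads and for 4.23% of the whole file, and the 9 had 2976 reads in all. They were piR-33879, piR-31111, piR-36494, piR-33686, piR-30112, piR-51309, piR-33687, piR-36716 and piR-33849. In 6 of the 9, piR-31111 and piR-36494 among them, CTGA, the letters of the D box, stood in the last 10 bases. These 6 are 7.06% of the 85, and the same share was not counted in the shorter entries. Of the 9, piR-33686 and piR-33687 differ by 1 base only. TGATG and CTGA at any place were both present in 8 long entries, or 9.41%, and in 4.80% of the shorter ones. The 8 had 5414 reads, of which 3643 were in piR-36376, with the letters of the large cytosolic rRNA. There, and in an entry with 10 reads, the letters are CTGATG, in which the motifs overlap. Such overlaps were not set apart in either count. These motifs were searched on the listed strand after the sequences had been seen, and a match of so few letters is a description. Capitals mark TGATG and CTGA.
piR-33879: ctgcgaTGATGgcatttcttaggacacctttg
piR-31111: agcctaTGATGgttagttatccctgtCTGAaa
piR-36494: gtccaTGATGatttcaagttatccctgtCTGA

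In full length, 3 of the 85 entries, or 3.53%, occurred in a RefSeq promoter, here the 250 bases before and 50 after the start of a gene on GRCh38.p14, read on both strands. Of the shorter entries with 10 or more reads 14 did, or 1.12%. piR-33879, with 862 reads, lay at chr18:49491698-49491729 on the minus strand, beginning 145 bases before the start of RPL17-C18orf32. piR-36243 lay at chr6:28863726-28863757 on the minus strand, beginning 80 bases before the start of LINC01623, and piR-36256, with 118 reads, began 79 bases before it. The pair is the same site shifted by 1 base, so the 3 entries are not independent. The pair has the letters of an alanine tRNA, so the same letters may also stand in other tRNA genes, which were not used here. Capitals mark the base that is N in piR-36244, and the last base that piR-36256 adds.
piR-36243: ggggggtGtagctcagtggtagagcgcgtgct
piR-36244: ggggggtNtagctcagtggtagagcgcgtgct
piR-36256: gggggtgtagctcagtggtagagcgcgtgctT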

How the data were processed

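Per the labels' protocols, RNA came from a Trizol extraction, and NEBNext reagents gave the small RNA library, sequenced from 1 end over 50 bases. The deposited values are read counts, given by the authors per piRNA database entry and per mature miRNA with the listed sequences, and were not normalized, per the file headers. The submitters' processing notes name cutadapt, hg19 and GRCh37. The sources used here state no aligner, mismatch setting or rule for reads matching several entries, so reads of overlapping entries may be shared or split.

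The entries and most features were chosen with earlier results of these data known. Listed sequences were compared in Python 3.11.15 with pandas 2.3.3, and intervals came from SciPy 1.17.1. A shared run needed 20 bases (16 with a miRNA) and stopped at N. Near-identical pairs differed by 1 base over at least 28 aligned bases. No 2 entries had identical sequences. The functions were tested on simulated sequences. The rule for names took the 15 entries with the most reads, the 5 longest, leading entries of families, those overlapping abundant entries and the 10 highest with T at base 1 and A at base 10. Some entries that it took are counted but not reported here, so lists of names are examples. Other names were chosen after their values were seen. With 1 library no test was made.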

Additional observations from a re-analysis of the deposited data

How the results depend on the processing

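The 10 results were recomputed under other settings, and none could be computed at 33 bases or more, where no entry had 10 reads. Of 75 values, 44 moved by no more than a factor of 1.5 (counts) or stayed within the 95% interval (shares), and 31 did not. With 1 or more reads there were 441 entries in 424 families, 69.2% began with T, 21 had a 5′ complement, 6 had the B box or CCA, and 88.9% of reads lay in overlapping entries. With 100 or more reads there were 46 entries in 40 families with 1.639% of the piRNA reads, 19.6% had A at base 10, 3 had a 5′ complement, 0 shared bases with a miRNA, 0 had the B box or CCA, and 89.3% of reads overlapped. From 31 bases there were 277 entries in 238 families with 83.1% of the piRNA reads, 59.9% began with T, 25 overlapped abundant entries with 92.4% of the reads, 4 shared bases with a miRNA, 19 had a 5′ complement and 13 the B box or CCA. With piR-61648 kept, the share of piRNA reads was 2.59% and that in overlapping entries 93.04%. The latter was 88.2% with 24 shared bases, 89.2% with abundant from 1000 reads, and 51.6% both with a limit for abundant 10 times higher and with abundant as the 10 highest entries. A 5′ complement of 9 bases was found for 3 entries and of 11 bases for 1. Depth was not varied, and with 1 library it sets which entries near the minimum of 10 reads were included.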
